A study of Homo sapiens with 4 samples.

Results

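The regions described here are 274 stretches of open chromatin that stood at least 2-fold higher in myeloma cells carrying a PHF19 vector than in cells carrying the empty vector, in both of the library pairs of the study. Overlapping peaks of the 4 peak lists were merged on chromosomes 1 to 22 into 71853 regions, of which 34809 held a peak in all 4 libraries. For each of these the height was the largest number of fragments covering a summit, divided by the fragments of the library in M (mega). The log2 ratio of heights, PHF19 over empty vector, was centred on the pair's own median, taken over every region that both of its libraries had called. A region was kept when it reached 1 in both pairs. The members were thus chosen by their height ratios, which are given as a description and were not tested.

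The cells were AMO1, a long-established plasma cell myeloma line, and open DNA was tagged with the Tn5 transposase (ATAC-seq). Labels give the tissue as blood and name 4 groups of 1 library each. They are wild-type AMO1 with the empty PCDH vector, AMO1 with the PHF19 vector, and the same vectors in libraries with the title prefix IFN. Its meaning is not stated, and the unprefixed and IFN-prefixed pairs are called the first pair and the IFN-prefixed pair here. All 4 groups had been transfected with a plasmid, and the labels do not say whether the cells were a pool or 1 clone, nor when they were collected after transfection. With 1 library per group there is no replicate, so vector, culture and library cannot be told apart, and the 95% intervals below cover counting error only.

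PHF19 belongs to the Polycomb-like family, partners of Polycomb repressive complex 2. That complex methylates histone H3 and holds developmental genes in a silent state, and PHF19 helps to bring it to CpG-rich DNA. The gene is known for its high expression in aggressive multiple myeloma. Tn5 cuts where nucleosomes are absent or loose, so a taller peak means that more fragments came from that stretch of DNA. In bulk libraries, a stretch that is more open in each cell and one that is open in more cells cannot be told apart. The number of DNA copies of a stretch was not measured, and heights were not corrected for it.

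The libraries rested on 27.4 and 18.2 M fragments for empty vector and PHF19 overexpression, and on 65.9 and 16.4 M for the IFN-prefixed empty vector and PHF19 libraries. The IFN-prefixed empty vector library was the deepest, and its file header gives another project folder than the headers of the other 3. The lowest peaks called had 10, 8, 16 and 8 fragments in the same order. All 9 plasma cell markers looked at, among them SDC1, TNFRSF17 and IRF4, had a peak within 1000 bp of a gene end in all 4 libraries. The B cell genes MS4A1 and PAX5 and the myeloid genes CD14, LYZ, CSF1R and MPO had none in any library, while other markers of these cells, CR2 and BCL11A, ITGAM and CD68, had one in all 4. So did CD3E, CD4 and CD8A of the T and NK cell markers and COL1A1, COL1A2 and KRT18 of the stromal and epithelial ones. Inside PHF19 itself, a peak at 120857950 to 120858284 on chromosome 9 was called in both PHF19 libraries, with 144 and 120 fragments, and in neither empty vector library. The other 4 regions inside the gene had log2 ratios from -0.27 to 0.14 in the first pair and from -0.3 to -0.23 in the IFN-prefixed pair, and none is among the 274.

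Sequence was used for annotated transcript starts, as RefSeq windows of the 250 bases before and 50 bases after a start in GRCh38.p14. Such windows overlapped 33 of the regions. In 15 windows the tallest summit of every library fell inside. Of the protein-coding genes among these, the 250 bases upstream are printed for the 5 with the highest ratio. They are also printed for the tallest region of the whole set. At these genes the tallest summits lie on the promoter itself. The genes were chosen after their values were seen. Each is given 5′ to 3′ on the strand of the gene, in lower case, with every GC box (GGGCGG, or CCGCCC on the other strand) in capitals. The first is SGCD, which encodes a sarcoglycan of muscle, at chr5:156326914-156327163 on the plus strand. EIF4E1B, a germ cell form of the cap-binding translation factor, follows at chr5:176630425-176630674, plus strand. The third is SH3TC1 at chr4:8199040-8199289, plus strand. DIRAS2, a small Ras-like GTPase, lies at chr9:90642825-90643074 on the minus strand. ADRA1B, an adrenaline receptor, lies at chr5:159916232-159916481 on the plus strand. MBOAT2, an enzyme that acylates lysophospholipids, lies at chr2:9003685-9003934 on the minus strand.
SGCD: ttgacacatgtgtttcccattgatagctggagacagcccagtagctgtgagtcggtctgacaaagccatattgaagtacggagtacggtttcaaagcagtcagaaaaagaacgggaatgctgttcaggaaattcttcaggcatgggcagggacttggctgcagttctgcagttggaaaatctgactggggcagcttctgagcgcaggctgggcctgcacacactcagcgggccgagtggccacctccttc
EIF4E1B: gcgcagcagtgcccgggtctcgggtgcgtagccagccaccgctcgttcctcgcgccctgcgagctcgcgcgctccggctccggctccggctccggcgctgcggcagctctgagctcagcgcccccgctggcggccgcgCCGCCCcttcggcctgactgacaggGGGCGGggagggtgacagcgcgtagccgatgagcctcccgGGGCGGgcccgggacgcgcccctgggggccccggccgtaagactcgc
SH3TC1: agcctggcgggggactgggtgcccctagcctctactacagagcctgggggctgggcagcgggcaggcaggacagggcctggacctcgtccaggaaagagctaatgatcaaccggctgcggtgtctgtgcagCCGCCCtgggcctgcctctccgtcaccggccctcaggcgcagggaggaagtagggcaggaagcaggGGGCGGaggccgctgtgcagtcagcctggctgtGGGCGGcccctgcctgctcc
DIRAS2: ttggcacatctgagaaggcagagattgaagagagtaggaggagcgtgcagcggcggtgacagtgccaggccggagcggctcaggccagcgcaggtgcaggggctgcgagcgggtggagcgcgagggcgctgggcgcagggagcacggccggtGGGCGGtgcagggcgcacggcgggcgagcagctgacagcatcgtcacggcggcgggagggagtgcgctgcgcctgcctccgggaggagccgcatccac
ADRA1B: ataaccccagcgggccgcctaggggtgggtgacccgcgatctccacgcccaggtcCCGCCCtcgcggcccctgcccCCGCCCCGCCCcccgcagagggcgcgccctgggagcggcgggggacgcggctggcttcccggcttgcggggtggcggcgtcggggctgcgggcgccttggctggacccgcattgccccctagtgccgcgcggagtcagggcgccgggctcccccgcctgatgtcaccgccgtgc
MBOAT2: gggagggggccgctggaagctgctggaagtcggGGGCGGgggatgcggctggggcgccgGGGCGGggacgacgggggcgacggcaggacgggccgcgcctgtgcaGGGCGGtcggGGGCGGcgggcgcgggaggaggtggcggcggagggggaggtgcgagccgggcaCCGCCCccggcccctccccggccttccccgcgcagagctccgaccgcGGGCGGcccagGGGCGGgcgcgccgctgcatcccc

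These 6 stretches differ in composition. The SGCD stretch has 7 CpG dinucleotides and no GC box at a GC content of 53.2%, whereas the MBOAT2 stretch has 37 CpG, 7 GC boxes and a GC content of 84.0%. EIF4E1B has 37 CpG and 3 GC boxes, ADRA1B 33 CpG and 3 GC boxes, 2 of them overlapping, DIRAS2 27 CpG and 1 GC box, and SH3TC1 12 CpG and 3 GC boxes. The CpG-poor and the CpG-rich promoters were thus both found among the regions higher with PHF19.

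The SGCD promoter had heights of 0.585 and 0.47 fragments per M in the empty vector and IFN-prefixed empty vector libraries and of 1.76 and 1.65 in the PHF19 and IFN-prefixed PHF19 libraries. Its summits lay at -167 bases from the start in both PHF19 libraries, at -165 in the IFN-prefixed empty vector library and at -93 in the empty vector library. At DIRAS2 the heights were 0.95 and 1.06 with the empty vectors and 2.14 and 2.69 with PHF19, with all 4 summits between -116 and -102 bases from the start. Both promoters stood below the median height of the shared regions in every library. DIRAS2 came nearer to it in the PHF19 and IFN-prefixed PHF19 libraries, where that median was 2.58 and 2.81. The higher values with PHF19 within each pair follow from the rule that chose them. At SH3TC1 the heights were 1.83 and 1.53 with the empty vectors and 4.06 and 4.4 with PHF19. The ADRA1B promoter stood at 1.72 and 1.41 against 3.79 and 3.54, and a further member lay 37805 bp outside that gene.

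Over the 274 regions, heights were low in the empty vector libraries and higher with PHF19, as the rule requires. The median height was 0.658 fragments per M in the empty vector library and 0.713 in the IFN-prefixed one, and 1.7 and 2.02 in the PHF19 and IFN-prefixed PHF19 libraries. Regions with a peak in all 4 libraries had medians of 2.78, 2.72, 2.58 and 2.81 in that order. The members therefore stood below a usual shared region in all 4 libraries, and furthest below it without PHF19. In fragments the medians were 18 and 47 without PHF19 and 31 and 33 with it. In the empty vector library 12 of the regions had 10 fragments, the fewest of any peak called there, and none stood at the lowest count in the other 3 libraries. The peaks themselves were also narrower in the empty vector library, with a median length of 504 bp against 729, 786 and 722 bp in the PHF19, IFN-prefixed empty vector and IFN-prefixed PHF19 libraries. Shared regions in general had 890, 794, 1071 and 783 bp.

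The median log2 ratio was 1.32 in the first pair and 1.25 in the IFN-prefixed pair, and the highest values were 2.9 and 3.09. Of the 34809 shared regions, 0.787% met the rule in both pairs, 3.41% (1188) reached 1 in the first pair and 1.89% (658) in the IFN-prefixed pair. The 274 are 23.1% of the first number and 41.6% of the second. In the opposite direction 1.49% (517) stood at -1 or lower in both pairs. Since the rule used these ratios, nothing is read from the shares. The pairs share no library. Of the 1188 regions that reached 1 in the first pair, 1029 (86.6%) were above 0 in the IFN-prefixed pair and 3 were at -1 or lower, where 46.4% of all shared regions were above 0. Of the 658 that reached 1 in the IFN-prefixed pair, 631 (95.9%) were above 0 in the first, where 49.3% of all shared regions were. Across the 34809 regions, whose ratios within a library share depth and neighbourhood, Pearson's r between the pairs was 0.63. These values describe the ratios that the rule used and were not tested, and neither pair is a replicate of the other.

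**Figure D1:**
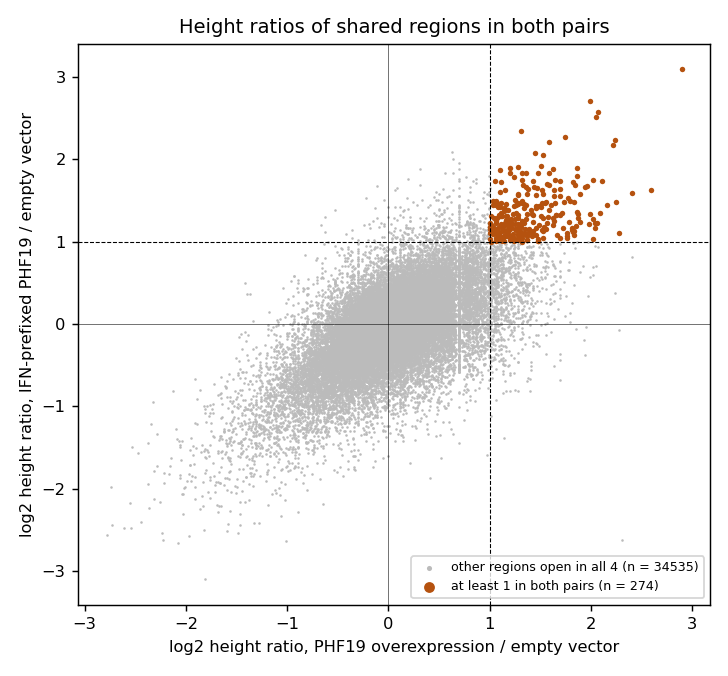
Log2 height ratio of every region with a peak in all 4 libraries, PHF19 over empty vector, in the first pair (x axis) and the IFN-prefixed pair (y axis), each centred on its median. The 274 regions, in the upper right corner past the dashed lines at 1, run up to 2.9 and 3.09, and most lie close to the lines.

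Most of the set lies near the threshold. The smaller of a region's ratios was under 1.1 in 92 of the 274 and under 1.2 in 156, while 34 reached 1.5 in both pairs and 5 reached 2. Just inside the threshold stood a region 45322 bp from the kinase gene MAP4K4, one inside the phospholipid transporter gene ABCB4 and one inside AFF4, a scaffold of the super elongation complex, all with a smaller ratio of 1.0. Just outside were regions inside DDR2, a collagen receptor kinase, inside the glutamate receptor gene GRIA1, and 6858 bp from ABHD16B, also at 1.0 to 2 decimals. A further 127 regions, these included, had a smaller ratio between 0.9 and 1. Counting error alone spans the threshold for most regions. The lower end of the interval was above 0 in both pairs for 249 of the 274, and at or above 1 in both pairs for 12.

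The largest ratio in both pairs lay at NKX2-5, a homeobox transcription factor of heart development and a classical target of Polycomb silencing. The region spans 173234490 to 173235906 on chromosome 5 and overlaps an end of the gene. It had 20 and 34 fragments in the empty vector and IFN-prefixed empty vector libraries, or 0.731 and 0.516 per M. With PHF19 it had 92 and 81, or 5.05 and 4.95 per M. The PHF19 libraries stood close to each other and above both empty vector libraries, a difference that the rule selected for. The log2 ratios were 2.90 (2.19 to 3.67) and 3.09 (2.5 to 3.71), and 2.49 and 2.74 above the median of the shared regions within 2.5 Mb. No other member reached 2.9 in either pair. The other 8 shared regions within 100 kb had medians of 0.65 and 0.63, and 1 of them is also a member, inside STC2, a secreted glycoprotein hormone.

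Other transcription factor genes also had members. Inside FOXP1, a forkhead factor with roles in B cells, the region at 71050544 to 71051457 on chromosome 3 had 0.731 and 0.349 per M without PHF19 and 2.69 and 2.56 with it. Its ratios were 1.99 (1.21 to 2.82) and 2.71 (1.94 to 3.51), while the other 6 shared regions within 100 kb had medians of 0.07 and -0.21. The FOXP1 region thus stood alone in its neighbourhood, unlike that at NKX2-5.

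Further homeobox and developmental factors, grouped here after their values were seen, include VAX2 of the eye, DMBX1 of the brain and BHLHE22 of the nervous system at gene ends. VAX2 had 2.05 and 2.06 per M with the empty vectors and 5.05 and 6.05 with PHF19, with ratios of 1.41 and 1.38. At DMBX1 the ratios were 1.34 and 1.1 and at BHLHE22 1.38 and 1.1. Members also lay inside LHX5 (1.53 and 1.58), inside the stretch of HOXC4, HOXC5 and HOXC6 (1.32 and 1.75), and 9082 bp from EN2 (1.36 and 1.66). Of the 66 genes of a list of Polycomb target factors, however, NKX2-5 was the one gene with a member. That is 1 of 36 shared regions (2.78%), against 0.787% of all shared regions. The medians of these 36 were 0.38 and 0.19, against -0.01 and -0.03 over all shared regions. Among the 26 lists, first-pair medians ran from -0.46 (stromal and epithelial markers) to 0.64 (SLAM family). In the IFN-prefixed pair they ran from -0.24 to 0.32. The rule used these ratios, so nothing is read from the medians.

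A few members at genes known from neurons are given together, picked after their values were seen and not counted against a list. Inside LRRC4C, which encodes a synaptic adhesion protein, the region at 40182996 to 40184121 on chromosome 11 had 0.731 and 0.501 per M with the empty vectors and 2.85 and 3.36 with PHF19. The ratios were 2.07 (1.30 to 2.90) and 2.58 (1.93 to 3.24). At an end of RIMBP2, a scaffold of the presynaptic terminal, the region at 130713838 to 130716055 on chromosome 12 had 13 and 25 fragments without PHF19 and 38 and 33 with it, and both ratios were 2.24. NTM, a cell adhesion molecule of neurons, had ratios of 2.41 (1.63 to 3.26) and 1.59 (0.97 to 2.21), and SDK2, which guides synapses in the retina, 1.75 (0.78 to 2.78) and 2.27 (1.44 to 3.11). RIMBP2, NTM and SDK2 had 13, 18 and 14 fragments in the empty vector library, under the 20 that the rule for named genes asked for. At the region shared by EIF4E1B and SNCB, the gene of beta-synuclein, heights were 1.79 and 1.27 without PHF19 and 4.72 and 5.43 with it, with ratios of 1.51 (0.98 to 2.04) and 1.92 (1.48 to 2.37).

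The other members named for their ratio lay at genes of varied roles. GRAMD1B carries cholesterol from the plasma membrane to the endoplasmic reticulum. Inside it, the region at 123430031 to 123431303 on chromosome 11 had 0.914 and 0.683 per M with the empty vectors and 3.51 and 4.4 with PHF19, and ratios of 2.05 (1.36 to 2.78) and 2.52 (1.96 to 3.09). A second member inside GRAMD1B, at 123406760 to 123407990, had 1.28 and 1.46. RANBP17, a nuclear transport receptor, had a region at 170865541 to 170866323 on chromosome 5 with 1.17 and 1.05 per M against 3.84 and 3.91, and ratios of 1.82 (1.2 to 2.48) and 1.73 (1.22 to 2.24). The local medians around these regions were 0.47 and 0.42 at GRAMD1B and 0.62 and 0.54 at RANBP17, so both lay in stretches that stood higher as a whole.

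PRKAG2, a regulatory subunit of the energy sensor AMPK, had 0.877 and 0.789 per M with the empty vectors and 3.13 and 2.81 with PHF19 at a gene end on chromosome 7, with ratios of 1.94 and 1.66. PDGFRA, a receptor tyrosine kinase, held a pair of members 7.16 kb from end to end on chromosome 4. The one inside the gene had 0.804 and 0.546 against 2.3 and 2.26, and the one 640 bp outside it had 0.731 and 0.546 against 1.76 and 1.83. For all of these the PHF19 libraries lay above the empty vector libraries, as the rule requires within each pair. YWHAQ, a 14-3-3 adaptor protein, differed in that the IFN-prefixed libraries were higher with either vector: 1.57 and 2.44 per M without PHF19, 4.72 and 8.06 with it. A region 73555 bp from the chemokine gene XCL2 had 1.24 and 1.44 against 4.12 and 4.52.

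**Figure D2:**
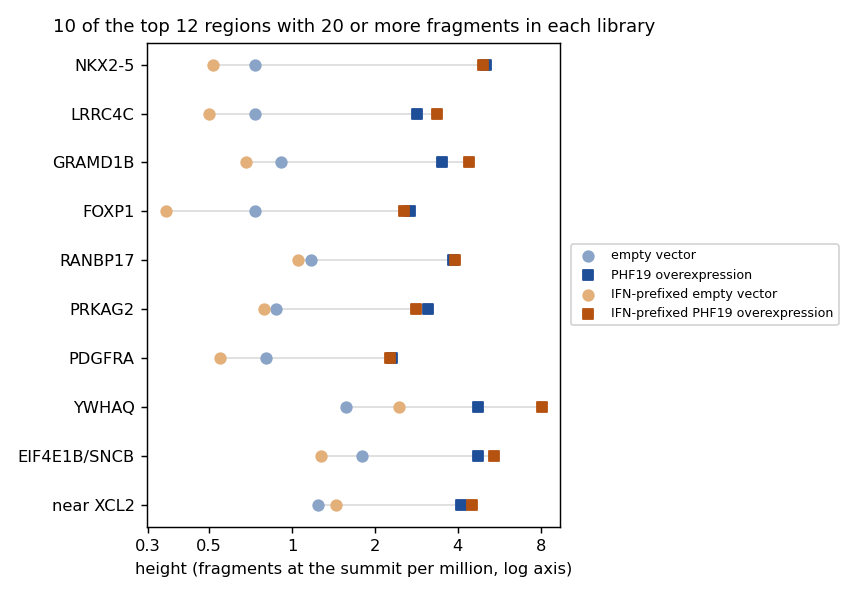
Height in fragments per M (log axis) in each of the 4 libraries for 10 of the 12 regions with the highest smaller ratio among those with at least 20 fragments in every library, circles for empty vector and squares for PHF19. At NKX2-5 the squares sit at 5.05 and 4.95 and the circles at 0.731 and 0.516. The rows were chosen by these heights, so the gap between circles and squares follows from the choice.

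The lower end of the counting interval reached 1 in both pairs at 12 regions. They are those at or inside NKX2-5, LRRC4C, GRAMD1B, FOXP1, RANBP17, PRKAG2, YWHAQ and RIMBP2 and those 73555 bp from XCL2, 17038 bp from RANBP17, 314270 bp from the kinesin gene KIF4B and 78859 bp from the sarcoglycan gene SGCZ. The KIF4B neighbour had 0.694 and 0.895 per M against 3.9 and 3.11, and that of SGCZ 0.548 and 0.516 against 2.36 and 2.63. The last 3 were named after their values were seen.

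The tallest regions of the set had ratios close to the threshold. At the MBOAT2 promoter the summit held 621 and 1129 fragments in the empty vector and IFN-prefixed empty vector libraries and 781 and 684 in the PHF19 libraries, or 22.7 and 17.1 against 42.9 and 41.8 per M. Its ratios were 1.03 (0.87 to 1.18) and 1.12 (0.98 to 1.25), the narrowest intervals of the regions named here. A region 8516 bp from ID2, an inhibitor of basic helix-loop-helix factors on the same chromosome 2, had 10.1 and 9.53 against 20.5 and 22.4 per M, with ratios of 1.13 and 1.06. MBOAT2 and the ID2 neighbour are thus strongly open in every library and about 2-fold taller with PHF19.

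The other 4 of the 6 tallest lie together on chromosome 5. At an end of SLC22A5, the carnitine transporter, heights were 4.09 and 2.93 against 8.18 in both PHF19 libraries, with ratios of 1.11 and 1.31. At the start of the non-coding gene CARINH, 14711 bp from SLC22A5, they were 4.24 and 3.49 against 9.0 and 8.98. A region 4822 bp from IRF1, which drives interferon-induced genes, had 3.76 and 4.17 against 7.13 and 10.1, with ratios of 1.03 (0.65 to 1.42) and 1.1 (0.81 to 1.39). At an end of SHROOM1 the heights were 3.98 and 3.47 against 7.46 and 9.04. In the stretch from 132369307 to 132497291, which holds 3 of these members, the other 7 of the 10 shared regions had medians of 0.94 and 0.83, so the whole stretch stood higher and the members were those that passed the threshold.

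Position along the genome was not used by the rule, and the members were unevenly spread. Chromosome 5 held 49 (17.9% of the members, against 5.69% of shared regions) and chromosome 8 held 46 (16.8% against 4.39%). Together these are 95 of the 274, or 34.7%, with 10.1% of the shared regions. Chromosome 2 held 38 (13.9% against 8.93%), chromosome 11 held 22 (8.03% against 5.54%) and chromosome 4 held 17 (6.2% against 3.93%). Chromosome 1 held 21 (7.66% against 9.93%). On chromosome 19 only 2 of 1680 shared regions were members (0.73% against 4.83%). On chromosome 8 the median ratios over all shared regions were 0.28 and 0.22, whereas on chromosome 5 they were 0.02 and -0.04. The local median within 2.5 Mb was above 0 in both pairs around 45 of the 49 members of chromosome 5 and 43 of the 46 of chromosome 8, and below 0 in both pairs around the other 4 and 3. Without these chromosomes 179 members were left, 0.572% of 31300 shared regions.

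**Figure D3:**
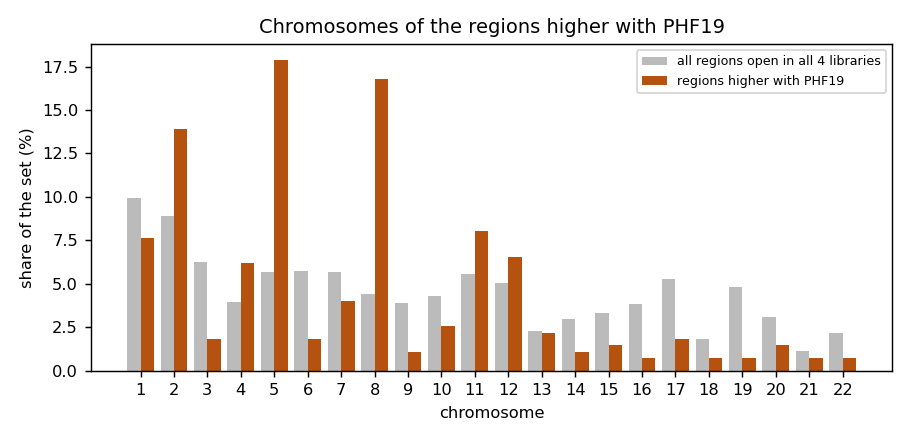
Share of all regions with a peak in all 4 libraries (grey) and of the 274 regions higher with PHF19 (orange) that lies on each chromosome, in percent of the set. Chromosomes 5 and 8 hold 17.9% and 16.8% of the orange set and 5.69% and 4.39% of the grey one.

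In bins of 5 Mb, 149 of 564 held a member, and 25 bins with at least 3 held 114 members (41.6%). The fullest ran from 170 to 175 Mb on chromosome 5, where 14 of 102 shared regions (13.7%) were members. It holds NKX2-5, STC2, RANBP17, the potassium channel partner KCNIP1 and the GABA receptor subunit gene GABRP. The next bin of the same chromosome, to 180 Mb, held 8 of 116, and the bins from 130 Mb on chromosome 5 and from 5 Mb on chromosome 12 held 6 each. Median ratios over all shared regions of the fullest bin were 0.61 and 0.45. From 15 to 20 Mb on chromosome 8, where 5 of 42 were members, they were 0.59 and 0.49. These bins were thus also higher as a whole. With the local median within 2.5 Mb subtracted, 193 regions met the rule, and 10.9% of them had another within 100 kb.

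Another member lay within 100 kb of 49 of the 274 (17.9%), in 22 groups, of which 4 had at least 3 members. In the group from 170744442 to 170866323 on chromosome 5, around GABRP and RANBP17, all 4 shared regions were members, with median ratios of 1.94 and 1.74. From 170533720 to 170633606, inside KCNIP1, 3 of 5 were. From 132820052 to 132897305, across SHROOM1 and AFF4, 3 of 4 were. Smaller groups with no other shared region between their members lay at PDGFRA, at GRAMD1B, at TNFRSF1A, at SLIT3, an axon guidance factor, and at the calcium-binding protein gene S100A8 on chromosome 1, picked after their values were seen.

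Shared regions that are not members also had higher ratios near a member. Those under 10 kb away (62 regions) had medians of 0.43 and 0.27. At 100 to 250 kb they were 0.20 and 0.16, and beyond 2.5 Mb -0.05 and -0.08 over 23089 regions. The fall with distance was seen in both pairs. Around the members the local median within 2.5 Mb was 0.23 in the first pair and 0.17 in the IFN-prefixed pair. With it subtracted, 138 of the members stayed at 1 or higher in both pairs. Regions called in both PHF19 libraries alone, 420 in all, lay within 100 kb of 39 members (14.2%) and of 3.35% of the shared regions. Regions called in both empty vector libraries alone, 6184 in all, lay within 100 kb of 89 members (32.5%) and of 48.4% of the shared regions.

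**Figure D4:**
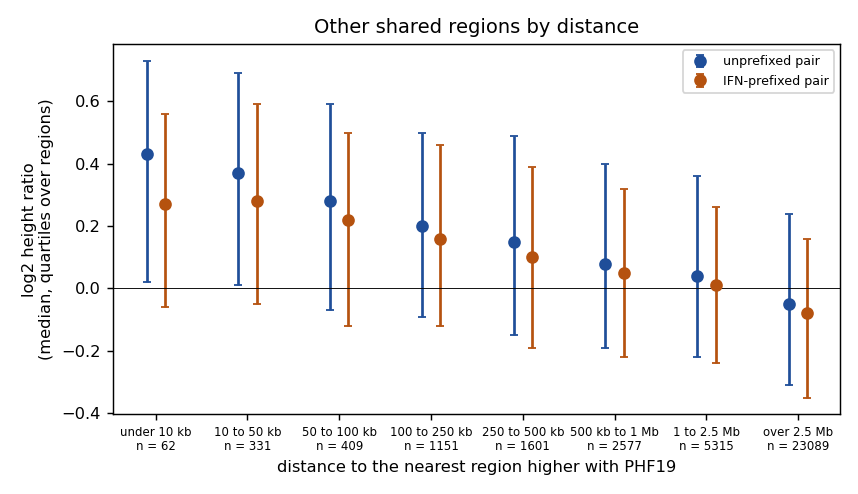
Log2 height ratio of the shared regions that are not members, by distance to the nearest member, as median (point) and quartiles (bar) over regions in the first pair (blue) and the IFN-prefixed pair (orange). The medians fall from 0.43 and 0.27 under 10 kb to -0.05 and -0.08 beyond 2.5 Mb, and the quartiles are wide at every distance.

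Relative to genes, members lay less at gene ends than shared regions did. Of the 274, 49 (17.9%, exact 95% interval 13.5 to 22.9) reached within 1000 bp of either end of a protein-coding gene, against 30.3% of the shared regions. Another 120 (43.8%) lay inside a gene, against 35.2%, and 105 (38.3%) between genes, against 34.5%. Over 100 kb from any protein-coding gene lay 37 (13.5%), against 8.18%. Members close to each other are not independent, so the intervals are too narrow. The reference table does not mark exons, so exon and intron are not told apart.

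Height moved with this result. When the shared regions were put into 10 classes of mean height, 1.67%, 2.15% and 1.41% of the lowest 3 classes were members, and 0.0575% of the tallest. Gene ends are tall in general, with a median height of 6.82 per M against 2.02 inside genes and 1.87 between them. Among the lowest 3 classes, 3.38% of gene ends were members (25 of 739), against 1.8% of regions inside genes and 1.45% between genes. In classes 4 to 6 the order was the same, at 1.15%, 0.757% and 0.669%. In classes 7 to 10, which hold 8056 of the 10538 gene ends, the shares were 0.0497%, 0.0631% and 0.148%. These rest on 4, 2 and 4 members, too few to read an order from. The height itself was used by the rule.

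**Figure D5:**
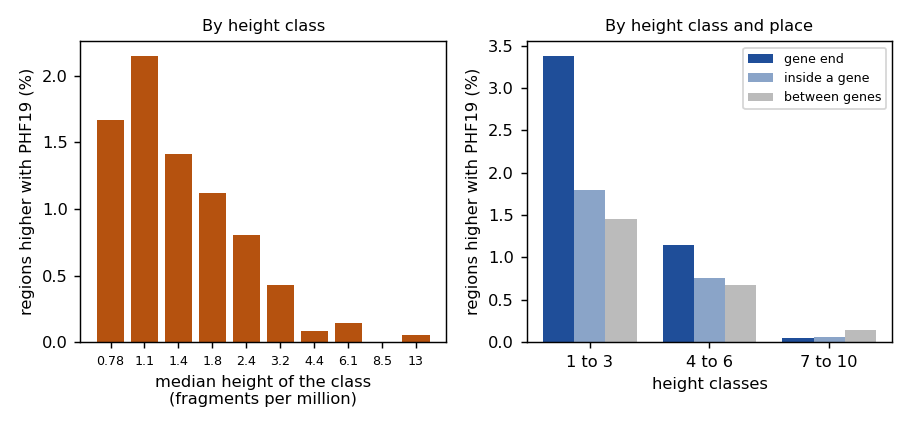
Percent of the shared regions that belong to the 274, by class of mean height over the 4 libraries (left, labelled with the median height of the class in fragments per M) and by place relative to protein-coding genes in 3 ranges of height class (right). The share is 2.15% in class 2 and 0.0575% in class 10, and in classes 1 to 3 it is 3.38% at gene ends.

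Members were shorter than shared regions, with a median of 930.5 bp against 1108 bp, and close to the 905 bp of the 4 lowest height classes. The summits of the 4 libraries were spread over a median of 97.5 bp in members, against 57 bp in all shared regions and 79 bp in the 4 lowest height classes. In 188 members (68.6%) all summits fell within 150 bp, against 82.6% and 75.7%. The 4 libraries thus mostly placed the same summit, somewhat less exactly than elsewhere.

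The table of start windows has none on chromosome 8. Elsewhere windows overlapped 33 of 228 members (14.5%) and 28.8% of the shared regions. The table covers 81.4% of the protein-coding genes outside chromosome 8. Of the 43 with a member at an end, 11 have no window, NKX2-5 among them. The 43 windows in members had a median GC content of 71.0%, against 66.0% in the 14536 windows of shared regions and 58.7% in all 33558. Of the member windows 67.4% were rich in CpG (GC content of at least 55% and an observed to expected CpG ratio of at least 0.65), against 74.5% of the shared and 42.0% of all windows. In height classes 1 to 6 the shares were 62.2% of 37 member windows and 52.7% of 2548 shared windows. Some windows share a region, and these differences were not tested.

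Of 23 motifs searched on both strands of the 300 bases, the GC box was the most frequent in the member windows. It was in 69.8% of them, in 71.1% of the shared (56.6% in height classes 1 to 6) and in 45.0% of all windows, so the boxes printed in capitals above are common at open promoters in general. The E-box CAGGTG was in 14 member windows (32.6%), against 18.8% of shared windows, 22.8% of those in height classes 1 to 6 and 20.7% of all, and the E-box CAGCTG in 10 (23.3%), against 16.4%, 17.7% and 18.0%. The ETS motif CCGGAAGT was in none, against 8.6% of shared windows, 4.98% of those in height classes 1 to 6 and 4.16% of all windows. These are descriptions of 43 windows, some of which share a region, and a match is not a bound site.

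Gene lists chosen with earlier results of these data known held members at about the general share. Of 866 shared regions at or inside a gene of the 26 lists, 6 (0.693%) were members, against 0.741% for any protein-coding gene. The lists for plasma cell identity (28 shared regions), interferon-stimulated genes (58), MHC genes (28), the Polycomb complexes (72), NF-kappaB (42) and housekeeping promoters (24) had none, and 21 of the 26 lists had none. With 0.787% of all shared regions in the set, nothing is read from lists without a member. Among the 6 were NKX2-5, ETS1, CDH2 and a pair at TNFRSF1A. At an end of TNFRSF1A, the main receptor for TNF, heights were 0.475 and 0.44 per M with the empty vectors and 1.43 and 1.65 with PHF19, with ratios of 1.69 (0.68 to 2.78) and 1.74 (0.92 to 2.54). Inside the same gene they were 0.731 and 0.789 against 1.59 and 1.89. The B cell factor ETS1 had 0.402 and 0.379 against 0.768 and 1.04, and CDH2, the neural cadherin of stromal cells, 0.438 and 0.334 against 0.988 and 1.4. ETS1 and CDH2 rested on 11 and 12 fragments in the empty vector library.

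In most members, as in most shared regions, differences that went with the IFN prefix lay within counting error. The centred log2 ratio of IFN-prefixed over unprefixed libraries had a median of 0.10 with either vector, against -0.03 and -0.01 over all shared regions. With the empty vectors its interval lay above 0 in 13 members (4.74%) and below in 4 (1.46%), against 5.07% and 15.5% of the shared regions. With PHF19 it lay above 0 in 15 (5.47%) and below in 2 (0.73%), against 2.55% and 2.51%. Members were lower than shared regions, with median heights of 0.658 and 0.713 against 2.78 and 2.72 in the empty vector libraries. Their counting intervals are therefore wider, and these heights were also used by the rule, so nothing is read from the shares. At FOXP1 it was -0.98 (-1.91 to -0.04) with the empty vectors and -0.18 with PHF19. The region 23712 bp from ETS2 had 0.621, 1.43, 0.683 and 3.91 per M in the empty vector, PHF19, IFN-prefixed empty vector and IFN-prefixed PHF19 libraries. There the prefix ratio was 0.22 (-0.61 to 1.12) with the empty vectors and 1.34 (0.66 to 2.06) with PHF19, and the difference was not tested. Inside ADAMTSL3 the heights were 0.694, 1.81, 1.58 and 4.09 in the same order, higher with the prefix and with PHF19 alike. ETS2 and ADAMTSL3 were named after their values were seen.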

How the data were processed

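Peak lists of 4 ATAC-seq libraries on hg38 were used, assigned to groups by their titles. The authors called peaks per library with MACS2 2.1.2 at a q of 0.01 without a control, keeping duplicates and calling several summits, setting the effective genome size to 3000000000 (per the file headers). Tools named in the submitters' processing notes, with no role, are bcl2fastq 2.17, Trimmomatic 0.38 and DiffBind. For the aligner, read filters and Tn5 shift, the sources used here give nothing. As signal, the authors deposited the pileup, that is, unscaled coverage by fragments at each summit, per the file headers. Of the other deposited columns, the −log10 q-value was used for a stricter peak filter, and the −log10 p-value and the fold enrichment, the authors' ratio to local background, gave no result.

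Heights were pileups per M (mega) fragments of the file headers, which makes total depth comparable but not background or duplication. Counting intervals are exact (Clopper-Pearson, 95%) on the 2 pileups, and duplicates mean that fragments are not all separate molecules. Gene positions (19126 protein-coding genes) and start windows came from RefSeq, GRCh38.p14. The members and lists were chosen with earlier results of these data known. Named genes were the 12 members with the largest smaller ratio among the 123 with at least 20 fragments in each library, the 6 tallest, up to 2 per gene list, the 3 just inside and just outside the threshold, and PHF19. Some items picked by this rule are not reported here. Other settings were no centring, centring on regions open in all 4 libraries, the median summit, a q of 1e-05, an overlap of 100 bp, 20 fragments, the lower counting bound, and removal of the local median or the height trend. Python 3.11.15, numpy 2.4.6, pandas 2.3.3 and scipy 1.17.1 were used, and the steps were tested on simulated data.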

Additional observations from a re-analysis of the deposited data

Results flagged for a closer look

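Chromosome X was outside the rule, which covers chromosomes 1 to 22. Of its 922 regions with a peak in all 4 libraries, 5 (0.542%) met the same height rule. They lay inside DMD, the dystrophin gene, inside or at NAP1L2 and SLITRK2, 5831 bp from VGLL1, and 502 bp from FTHL17. At NAP1L2 the heights were 0.621 and 0.835 fragments per M (mega) in the empty vector and IFN-prefixed empty vector libraries and 2.3 and 2.32 in the PHF19 libraries, with log2 ratios of 2.00 (1.16 to 2.91) and 1.31 (0.67 to 1.93). At DMD they were 0.95 and 0.728 against 2.3 and 2.2.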

How the results depend on the processing

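The number of regions was 274 and stayed within 1.5 times that (186 to 307) without centring, with centring on regions open in all 4 libraries, with the median summit, at a q of 1e-05, with an overlap of 100 bp, and with the local median or the height trend removed. Of the 274, 223 were among the 307 found without centring and 138 among the 193 with the local median removed. With at least 20 fragments in each library, 123 were left, with 26% at gene ends and a median length of 1031 bp. With the lower counting bound at 1 or higher, 12 were left, with 25% at gene ends and 1187.5 bp. Removing the local median left 10.9% with another member within 100 kb, and removing the height trend put 23.7% at gene ends. The next settings were chosen after seeing the data. Against the empty vector library alone, 669 regions met the rule in both PHF19 libraries, with 10.9% at gene ends and 254 of the 274 among them. Against the IFN-prefixed empty vector library alone, 284 did, with 23.6% at gene ends and 196 of the 274 among them. Without chromosomes 5 and 8, 179 were left. The cause was not tested where it is not the smaller number of regions. With the local median removed, 32 of the 50 ratios of the 25 named members stayed at 1 or higher. Low counts without PHF19, with a median of 18 fragments in the empty vector library, limit every ratio. The labels number no replicates and each group holds 1 library. No paired test was run, since the ratios of both pairs chose the members, and the pairs were read side by side.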
